A study of Mus musculus with 3 samples.

Results

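The genes described here encode complement proteins, complement regulators and ceruloplasmin. 8 genes were set by name (*C3*, *C4b*, *Cfb*, *Cfi*, *Cp*, *Serping1*, *Cd55* and *Cd59a*), and every probe set of the array that the platform annotation gives to exactly 1 of them was taken. That gave 16 of the array's 45101 probe sets, from 6 of 18193 named genes: 8 for *Cp*, 3 for *Cd55*, 2 for *Cd59a* and 1 each for *Cfb*, *Cfi* and *Serping1*. No probe set met this rule for *C3* or *C4b*, which are not analysed here. Kidney RNA of male C57BL/6J mice aged 16 weeks was hybridised to 1 array per sample. The cardio-renal syndrome (CRS) group, with 2 arrays, had the abdominal aorta banded below the branching of the renal arteries and 1 kidney removed 2 weeks later. The uninephrectomy-alone (UNX) group, with 1 array, had 1 kidney removed. In both groups the remaining kidney was taken 6 weeks after the nephrectomy, so loss of 1 kidney is common to all 3 arrays. Whether each sample came from 1 mouse or a pool, and whether the UNX sample had a sham banding, is not in the labels.

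Complement is a cascade of blood-borne proteases that tags surfaces for removal and can punch pores in membranes. The classical pathway starts at C1, the lectin pathway at sugar-binding proteins, and the alternative pathway amplifies what the others begin through factor B. Soluble inhibitors and proteins anchored in the cell membrane keep the cascade off the body's own cells, and renal tubules are known to make several components locally. Ceruloplasmin is a copper-carrying ferroxidase that oxidises iron for loading onto transferrin; the liver secretes it as an acute phase protein, and other tissues make a form held on the cell surface by a lipid anchor.

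The measurement is the MAS5 signal, a linear fluorescence intensity per probe set, and signals of different probe sets are not on one scale. Differences are given as log2(signal + 28.8), an offset that understates the change of dim probe sets. A probe set was kept for testing when its mean on this scale reached 7.01, the median of all non-control probe sets. 22519 were kept, among them 14 of the 16; 1 *Cp* and 1 *Cd55* probe set were dimmer. In whole-kidney RNA, fewer cells of a type and less RNA per cell cannot be told apart.

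The arrays did not stand at equal distances. At least 2-fold differences over the kept probe sets separated CRS array 1 from the UNX array for 229, CRS array 2 from the UNX array for 107, and the CRS arrays from each other for 219. CRS array 1 therefore stood apart, and each value below is given for both CRS arrays. Kidney tubule markers were bright on all arrays, with summed signals over 9 genes of 126706 and 145450 in CRS arrays 1 and 2 and 142400 in the UNX array. A list of 6 genes known to be higher in male than female mouse kidney summed to 35044.8 and 76828.5 in CRS arrays 1 and 2 and to 77629.2 in the UNX array. *Kap*, which is in both lists, had 29674.5 and 40587.9 in CRS arrays 1 and 2 and 39782.3 in the UNX array. Of the 6 genes, 5 were at least 2-fold lower in CRS array 1 than in CRS array 2 (0.506% of all kept probe sets). Heart muscle markers summed over 8 genes to 2024.41 and 1391.43 in the CRS arrays and to 213.87 in the UNX array. Only 3 of the 8 were kept, all 3 at least 2-fold higher in both CRS arrays (0.142% of all kept probe sets). In the UNX array the signals of the 8 were dim, from 1.97 to 72.7.

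The main differences were those of *Cp* and of 1 *Cd55* probe set, and they lay mostly in CRS array 1. All 8 of its probe sets were higher in CRS array 1 than in the UNX array, by ratios of 1.10 to 2.80, and all 8 were higher in CRS array 1 than in CRS array 2, by ratios of 1.55 to 3.02. In CRS array 2, only 3 of the 8 lay above the UNX array, and the ratios ran from 0.684 to 1.47. The choice of probe set thus decides whether *Cp* reads as higher in both CRS arrays or in 1.

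The brightest *Cp* probe set, 1417494_a_at, had signals of 2539 and 1455 in CRS arrays 1 and 2 and of 990.04 in the UNX array. Both CRS arrays lay above the UNX array, with a mean log2 difference of 0.94 ± 0.56 (SD, n = 2). The suffix _a_at marks a probe set meant to match several transcripts of 1 gene. Its companion 1417495_x_at, whose suffix warns of cross-hybridisation, had signals of 2078 and 687 in the CRS arrays and of 765 in the UNX array. Here CRS array 1 was high while CRS array 2 lay just below the UNX array, at log2 differences of 1.41 and -0.15.

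Probe set 1448734_at, without such a suffix, behaved like the second of these. Its signals were 2297 and 779 in CRS arrays 1 and 2 and 819.6 in the UNX array, so CRS array 2 and the UNX array differed by -0.07 on the log2 scale and CRS array 1 stood 1.46 above the UNX array. Probe set 1417496_at had 677 and 277 in the CRS arrays and 344 in the UNX array. It again placed CRS array 1 highest and CRS array 2 lowest. Probe set 1455393_at had 697 and 303 in the CRS arrays and 269 in the UNX array, so both CRS arrays were above it, CRS array 2 by only 0.15 on the log2 scale.

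Of the 3 further *Cp* probe sets, only 1441326_at was below the filter. 1448735_at had 388 and 240.1 in CRS arrays 1 and 2 and 351 in the UNX array. 1417497_at had 187 and 121 in the CRS arrays and 161 in the UNX array. In both of these CRS array 2 was the lowest, and CRS array 1 was above the UNX array by 0.13 and 0.19 on the log2 scale. The dim 1441326_at had 119.8 and 68.2 in the CRS arrays and 48.9 in the UNX array, both CRS arrays being above it. Mean CRS minus UNX differences over the 8 probe sets ran from -0.18 to 0.94.

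**Figure D1:**
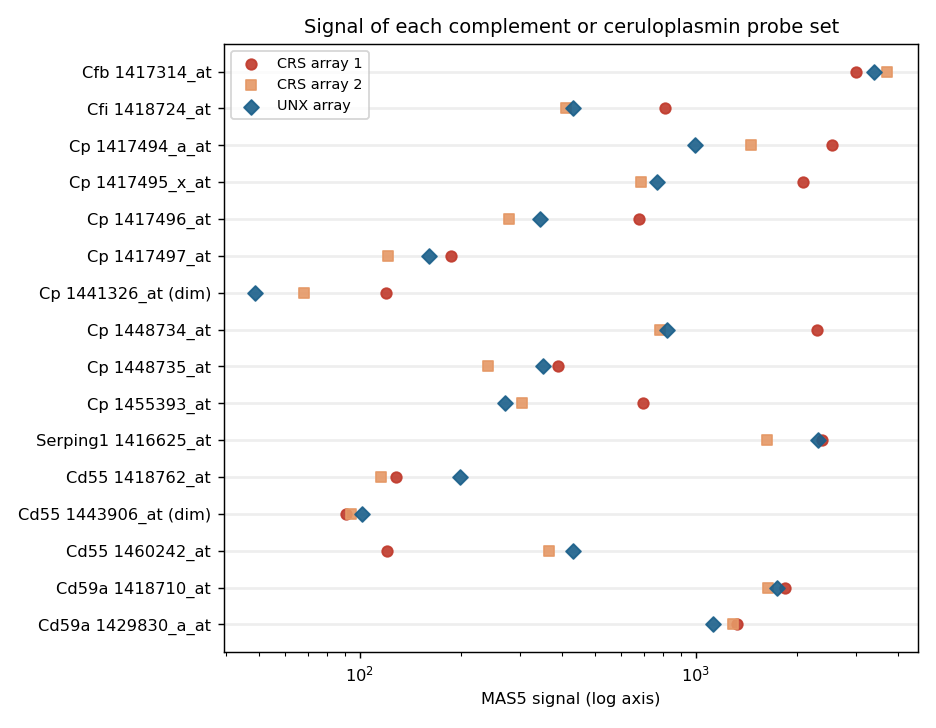
MAS5 signal (log axis) of the 16 probe sets, 1 row each, on CRS array 1 (circles), CRS array 2 (squares) and the UNX array (diamonds); rows marked dim were below the filter, and levels are not comparable between rows. In all 8 *Cp* rows the circle lies furthest right, whereas the square lies right of the diamond in 3 of them.

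Sequence upstream of *Cp* and *Cd55* is shown because these 2 genes gave the widest gaps between the CRS arrays. RefSeq promoter windows (GRCm38.p6, 250 bases before to 50 after an annotated start) were found for 3 of the 6 genes, *Cd55*, *Cd59a* and *Cp*. *Cp* has 2 annotated starts, and the window of the downstream one is printed. Capitals mark matches on either strand to GGGNNNNNCC, a loose form of the motif of NF-kB, the inflammatory transcription factor; overlapping matches run together.
Cp, chr3:19956999-19957298, plus strand: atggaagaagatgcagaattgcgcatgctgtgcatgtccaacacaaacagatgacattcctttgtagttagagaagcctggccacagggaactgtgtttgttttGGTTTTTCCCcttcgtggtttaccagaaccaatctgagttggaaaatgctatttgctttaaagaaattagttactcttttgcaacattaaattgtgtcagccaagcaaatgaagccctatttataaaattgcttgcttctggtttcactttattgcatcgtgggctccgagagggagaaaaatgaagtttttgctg
Cd55, chr1:130462695-130462994, minus strand: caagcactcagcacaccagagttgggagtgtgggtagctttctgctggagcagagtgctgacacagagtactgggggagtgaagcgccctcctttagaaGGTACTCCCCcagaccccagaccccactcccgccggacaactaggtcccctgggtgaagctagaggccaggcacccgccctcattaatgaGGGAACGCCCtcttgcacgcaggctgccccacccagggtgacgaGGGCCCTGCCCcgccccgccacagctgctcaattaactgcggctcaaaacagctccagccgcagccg

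The *Cp* window held 1 such match and the *Cd55* window 4, while 50.8% of 32851 promoter windows of this length held at least 1. The upstream *Cp* window had 0 matches and the *Cd59a* window 2. Neither TTCNNNGAA, the STAT motif, found in 8.3% of windows, nor ACGTG, the core of the hypoxia-response motif, found in 19.6%, was in any of the 4 windows. A match is a run of letters and not a shown binding site, and a missing one says only that these letters are not in the window.

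Among the soluble complement proteins, *Cfi* was highest in CRS array 1, as *Cp* was. *Cfi* encodes factor I, the serine protease that inactivates C3b and C4b. Its probe set 1418724_at had signals of 808 and 409 in CRS arrays 1 and 2 and of 429 in the UNX array. CRS array 1 was 1.97 times CRS array 2, and CRS array 2 lay just below the UNX array. The mean log2 difference from the UNX array was 0.40 ± 0.66 (SD, n = 2), an SD larger than the mean.

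*Cfb*, which encodes the protease subunit of the alternative pathway convertase, was bright and close to even. Probe set 1417314_at had 2999 and 3698 in CRS arrays 1 and 2 and 3386 in the UNX array, which lay between them. Its mean log2 difference was -0.02 ± 0.21 (SD, n = 2).

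*Serping1*, the gene of C1 inhibitor, which blocks the proteases that start the classical pathway, was lower only in CRS array 2. Probe set 1416625_at had 2372 and 1623 in CRS arrays 1 and 2 and 2313 in the UNX array. CRS array 1 and the UNX array differed by 0.04 on the log2 scale and CRS array 2 lay 0.50 below. Fibroblast markers were also lowest in CRS array 2. All 7 were kept, and all 7 were lower in CRS array 2 than in CRS array 1 and the UNX array. CRS array 1 was above CRS array 2 for 55.1% of all kept probe sets, and the share lowest in CRS array 2 was not counted. The summed signals of the fibroblast markers were 9220 and 6149 in CRS arrays 1 and 2 and 9726 in the UNX array. The part of fibroblasts in the *Serping1* values was not tested.

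The membrane-bound regulators split. *Cd55* encodes decay-accelerating factor, a lipid-anchored protein that takes the C3 and C5 convertases apart, and all 3 of its probe sets were lower in both CRS arrays. Probe set 1460242_at had 120.3 and 366 in CRS arrays 1 and 2 and 431 in the UNX array, with CRS array 1 far below the other arrays. Its mean log2 difference was -0.92 ± 0.99 (SD, n = 2). Probe set 1418762_at, nearer the filter, had 128 and 115 in the CRS arrays and 199 in the UNX array. There the CRS arrays lay side by side below the UNX array, at -0.60 ± 0.08 (SD, n = 2). The dim 1443906_at had 90.9 and 94.4 in the CRS arrays and 101 in the UNX array. *Cd55* and *Cd55b* are close paralogs, and whether these probe sets tell them apart was not tested; the probe set annotated to *Cd55b* alone had signals of 0.556 and 6.73 in the CRS arrays and 9.59 in the UNX array.

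*Cd59a* encodes the lipid-anchored inhibitor of the membrane attack complex. Probe set 1418710_at had 1841 and 1637 in CRS arrays 1 and 2 and 1745.5 in the UNX array, which lay between them. Probe set 1429830_a_at had 1328 and 1285 in the CRS arrays and 1124 in the UNX array, so both CRS arrays were slightly above it, by 0.21 ± 0.03 on the log2 scale (SD, n = 2). The 2 probe sets therefore gave a different order of groups, with mean differences of -0.01 and 0.21.

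**Figure D2:**
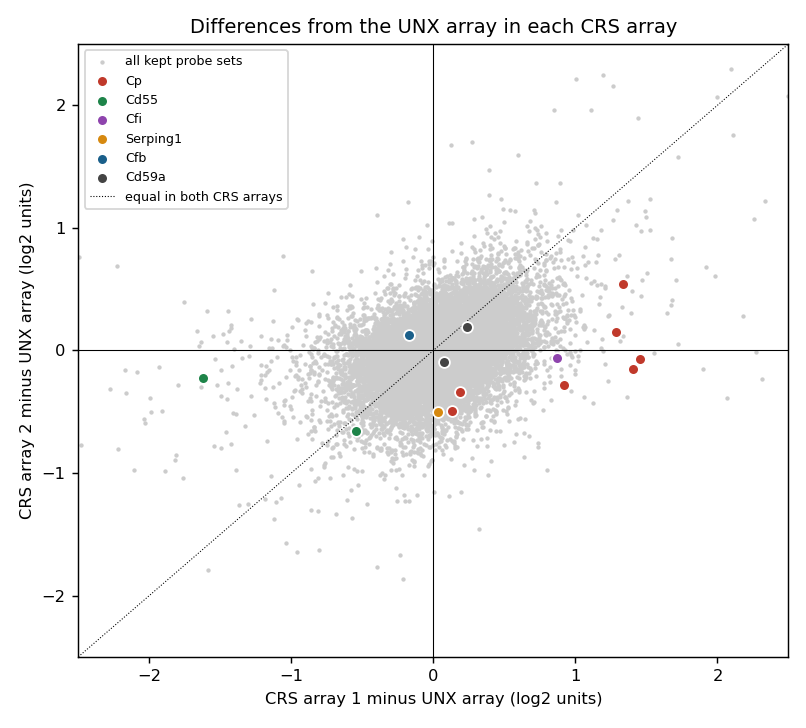
Log2 difference of CRS array 1 (horizontal) and CRS array 2 (vertical) from the UNX array for each kept probe set, grey for all 22519 (24 lie outside the axes) and coloured for the 14 described here; on the dotted line both CRS arrays differ equally from the UNX array. 5 *Cp* probe sets and *Cfi* lie to the right, at heights between -0.28 and 0.54, and *Cd55* 1460242_at lies to the left at -1.62 and -0.22.

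Set against the whole array, 3 of the 14 kept probe sets were higher in both CRS arrays than in the UNX array, where 31.8% of all kept probe sets were, and 2 of 14 were lower in both, where 29.7% were. The remaining 9 had opposite signs, against 38.5% of all. None of the 14 was at least 2-fold higher in both (0.142% of all) or 2-fold lower in both (0.0533% of all), nor at least 1.5-fold apart in both (0.639% higher and 0.364% lower of all). Taken singly, CRS array 1 was at least 2-fold apart from the UNX array for 5 of the 14 (1.02% of all) and at least 1.5-fold apart for 7 (5.16% of all), while CRS array 2 was 2-fold apart for 0 (0.475% of all) and 1.5-fold apart for 1 (3.49% of all), *Cd55* 1418762_at. For CRS array 1, 4 of those 5 and 5 of those 7 were *Cp* probe sets, which read 1 gene. Both CRS arrays are set against the same UNX array, so a shared sign can come from that array alone.

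In limma's fit over all 22519 kept probe sets, which has 1 residual degree of freedom and assumes that the lone UNX array varies like the CRS arrays, 0 probe sets passed Benjamini-Hochberg adjustment in either direction (0% of all) and 627 had an unadjusted p under 0.05 (2.78% of all). 2 of the 14 were among these, *Cp* 1417494_a_at and *Cd55* 1418762_at. The limma adjusted p was 0.9998 for both, as for each of the other 12. The standard error in limma's fit was 0.29 log2 units for that *Cp* probe set and 0.25 for that *Cd55* probe set. Such a fit cannot show that the groups are alike.

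CRS array 1 was above CRS array 2 for 12 of the 14 kept probe sets, against 55.1% of all. Between the 2 CRS arrays, 5 of the 14 were at least 2-fold apart, where 0.973% of all kept probe sets were: 4 were higher in array 1 (0.466% of all) and 1 was lower (0.506% of all). At least 1.5-fold apart were 8 of the 14, where 5.94% of all were, 7 higher in array 1 (3.65% of all) and 1 lower (2.29% of all). The 4 higher were *Cp* 1417495_x_at, 1417496_at, 1448734_at and 1455393_at, and the lower was *Cd55* 1460242_at. They are not 5 independent measurements, since the *Cp* probe sets read 1 gene. Of the 7 kept probe sets other than those of *Cp*, CRS array 1 was above CRS array 2 for 5. Among these 7, 2 were at least 1.5-fold and 1 at least 2-fold apart. The gap of *Cp* 1417495_x_at, 1.56 on the log2 scale, was exceeded in size by 0.235% of kept probe sets, that of *Cd55* 1460242_at, at -1.40, by 0.346%, and that of *Cfi*, at 0.93, by 1.20%. The gap of *Cd59a* 1429830_a_at, at 0.05, was exceeded by 85.4%. These are replicates of 1 group and the gaps carry no test.

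**Figure D3:**
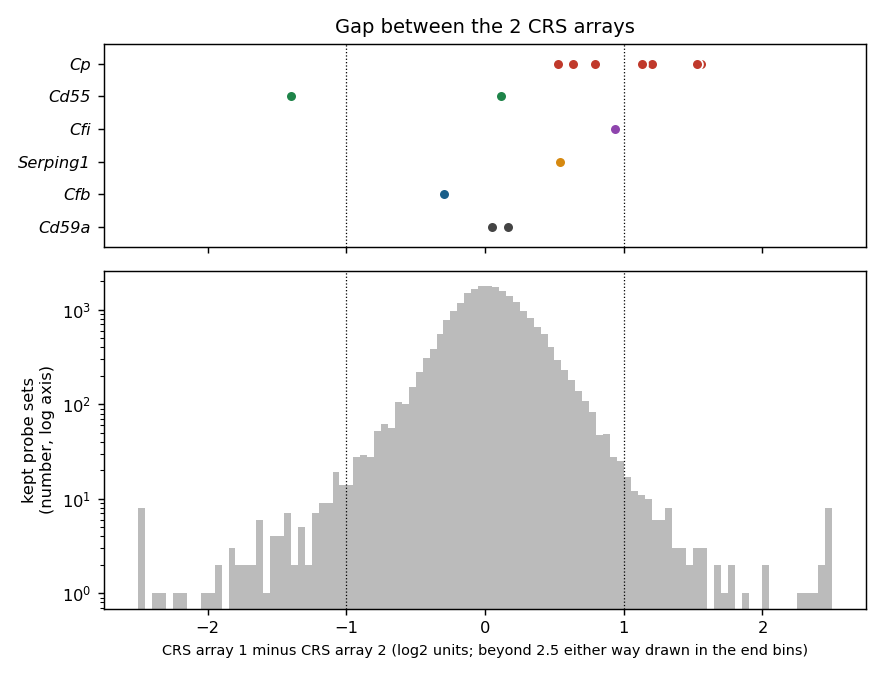
Upper panel, log2 difference of CRS array 1 minus CRS array 2 for the 14 kept probe sets, 1 row per gene; lower panel, the number (log axis) of all 22519 kept probe sets by the same difference, with dotted lines at a 2-fold gap. 4 *Cp* probe sets lie beyond the right line and 1 *Cd55* probe set beyond the left, while *Cd59a*, *Cfb*, *Serping1* and *Cfi* lie between the lines.

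The 5 genes whose pair of differences was nearest to that of *Cp* 1417494_a_at were, over 3 arrays and 11140 genes, *Pigr*, *Aqp4*, *Aldh1a1*, *Slc6a4* and *Myrf*, at Euclidean distances of 0.069, 0.12, 0.13, 0.18 and 0.19 log2 units. *Pigr*, the epithelial receptor that carries polymeric immunoglobulin across the cell, had signals of 4184 and 2467 in CRS arrays 1 and 2 and of 1612 in the UNX array. *Aqp4*, a basolateral water channel, had 1213 and 745 in the CRS arrays and 508 in the UNX array. *Aldh1a1*, a retinaldehyde dehydrogenase, had 1302 and 788 in the CRS arrays and 546 in the UNX array. In each of them CRS array 1 was highest and the UNX array lowest, an order set in advance by choosing genes near that probe set. It was not the order of the 5 *Cp* probe sets in which CRS array 2 lay below the UNX array.

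The rest of the complement system was read from a list of 45 other genes, of which 39 had a named probe set and 20 were kept, with each gene read from its brightest probe set on average. 6 of the 20 were higher in both CRS arrays (31.8% of all kept probe sets), 4 were lower in both (29.7% of all) and 10 had opposite signs (38.5% of all). The median differences were 0.13 in CRS array 1 and 0.0073 in CRS array 2, against 0.020 and -0.0061 over all kept probe sets. None passed limma's adjusted p. At least 1.5-fold apart from the UNX array were 4 of the 20 in CRS array 1 (5.16% of all) and 2 in CRS array 2 (3.49% of all). Between the CRS arrays, 7 of the 20 were at least 1.5-fold apart (5.94% of all). Of these, 5 were higher in array 1 (3.65% of all) and 2 were lower (2.29% of all). 1 of the 20 was at least 1.5-fold higher in both (0.639% of all), *Cfp*, the gene of properdin, which stabilises the alternative pathway convertase.

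*Cfp* had signals of 247 and 248 in CRS arrays 1 and 2 and of 154 in the UNX array, a mean log2 difference of 0.60 ± 0.0044 (SD, n = 2). The CRS arrays were nearly equal, but its other, dimmer probe set had 13.6 and 95.4 in the CRS arrays and 42.4 in the UNX array and did not show this. Of the C1q chains, *C1qb* stood at 0.31 ± 0.02 and *C1qc* at -0.35 ± 0.15 (SD, n = 2 each), on opposite sides of the UNX array although their products form 1 complex. *C1qa* stood at -0.09 ± 0.11. Of the other probe sets of *C1qb*, 1434366_x_at was higher in both CRS arrays and 1437726_x_at was not.

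The genes of the C1 proteases, which the *Serping1* product inhibits, were lowest in CRS array 2, as *Serping1* was. *C1s1* had 630.3 and 384 in CRS arrays 1 and 2 and 641 in the UNX array, and *C1ra* had 289 and 177 in the CRS arrays and 253 in the UNX array. The UNX array was the highest for *C1s1* and CRS array 1 for *C1ra*; the fibroblast markers given above were likewise lowest in CRS array 2. *C2*, the classical pathway protease next to *Cfb* in the genome, had 1490.3 and 965 in the CRS arrays and 1130.4 in the UNX array. All 3 probe sets of *C2* placed CRS array 1 above and CRS array 2 below the UNX array.

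In the terminal pathway, *C8a*, a chain of the membrane attack complex, had 339 and 865 in CRS arrays 1 and 2 and 904 in the UNX array. It was the only 1 of the 20 genes at least 2-fold apart between the CRS arrays (0.973% of all), and it was low in CRS array 1, where *Cp* was high. *C8g*, another chain, had 807 and 969.7 in the CRS arrays and 868 in the UNX array, which lay between them. Of other regulators, *Cr1l*, the rodent membrane regulator known as Crry, stood at 0.19 ± 0.04, and clusterin, *Clu*, at 0.15 ± 0.14 (SD, n = 2 each). Another *Cr1l* probe set, 1430131_at, stood at 0.24 and -0.07 in CRS arrays 1 and 2, while the dim 1438920_x_at was higher in both. *Cpn1*, the carboxypeptidase that inactivates anaphylatoxins, had 2103 and 1206 in the CRS arrays and 1064 in the UNX array, the order of *Cp* 1417494_a_at, but its second probe set had 268 and 183 in the CRS arrays and 247 in the UNX array.

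**Figure D4:**
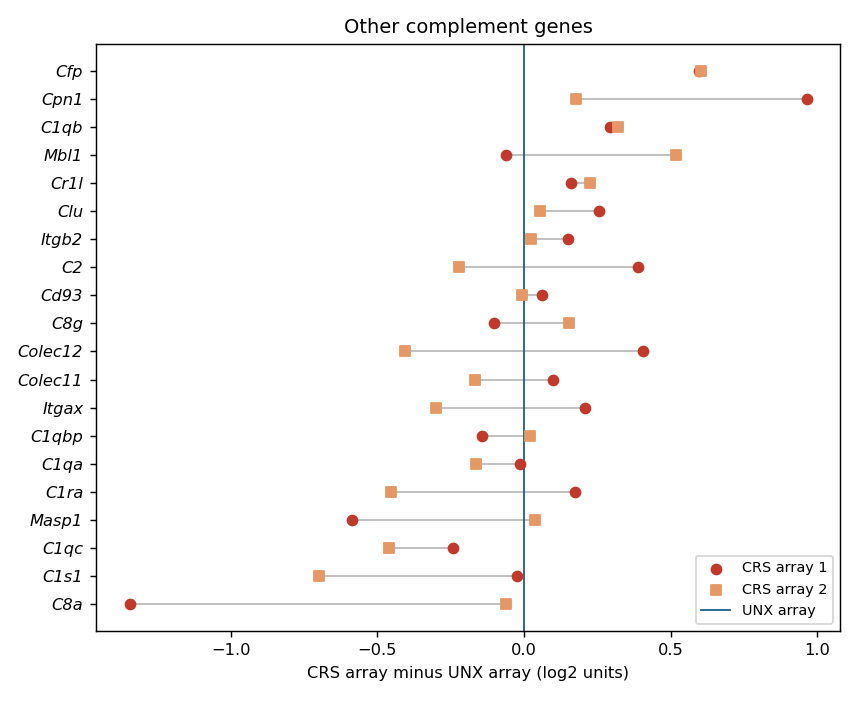
Log2 difference of CRS array 1 (circles) and CRS array 2 (squares) from the UNX array (vertical line) for the 20 kept genes of the complement list, ordered by their mean difference. *Cfp* has both CRS arrays together at 0.60, *Cpn1* and *C8a* have CRS array 1 far from CRS array 2 on opposite sides, and 10 of the 20 genes straddle the line.

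Genes around ceruloplasmin in iron and copper handling were spread to both sides of the UNX array, as kept probe sets were in general. Of 28 listed genes 23 were kept. 6 were higher in both CRS arrays (31.8% of all kept probe sets), 7 lower in both (29.7%) and 10 of opposite sign (38.5%). Medians were 0.077 in CRS array 1 and -0.0093 in CRS array 2. None was at least 1.5-fold apart from the UNX array in both (0.639% higher and 0.364% lower of all). None was 2-fold apart between the CRS arrays (0.973% of all). At least 1.5-fold apart between them were 3 of the 23 (5.94% of all), 1 higher in array 1 (3.65%) and 2 lower (2.29%). *Heph*, the membrane ferroxidase related to ceruloplasmin, had 695 and 378 in CRS arrays 1 and 2 and 483 in the UNX array, again highest in CRS array 1 and lowest in CRS array 2. *Slc40a1*, the iron exporter ferroportin, had 3132 and 2648 in the CRS arrays and 2955 in the UNX array. *Mt2*, a metal-binding metallothionein, stood at 0.22 ± 0.04, and *Hmox1*, the haem-degrading oxygenase, at -0.41 ± 0.38 (SD, n = 2 each). *Hfe*, a regulator of hepcidin, stood at 0.35 ± 0.31, *Slc11a2*, an iron importer, at 0.22 ± 0.08, *Steap4*, a metalloreductase, at -0.35 ± 0.24, and *Tfr2*, a transferrin receptor, at 0.10 ± 0.03. Other probe sets partly differed. *Hfe* 1450702_at stood at 0.26 and -0.07 in CRS arrays 1 and 2, and *Slc11a2* 1452078_a_at at 0.02 and -0.05. *Slc11a2* 1417584_at and 1441709_at were higher in both, as was the dim *Steap4* 1425829_a_at.

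Acute phase and inflammatory genes were divided in direction, as kept probe sets were in general. Of 31 listed genes 14 were kept. 4 were higher in both CRS arrays (31.8% of all kept probe sets), 4 lower in both (29.7%) and 6 of opposite sign (38.5%). Medians were 0.083 in CRS array 1 and -0.10 in CRS array 2. At least 1.5-fold apart from the UNX array were 4 in CRS array 1 (5.16% of all) and 0 in CRS array 2 (3.49%). Between the CRS arrays, 5 of the 14 were at least 1.5-fold apart (5.94% of all). Of these, 4 were higher in array 1 (3.65%) and 1 was lower (2.29%). The fibrinogen chains *Fga* and *Fgg* were highest in CRS array 1, as *Cp* was: *Fga* had 959 and 551 in CRS arrays 1 and 2 and 617 in the UNX array. *Fgg* had 1025 and 666 in the CRS arrays and 662 in the UNX array, so CRS array 2 and the UNX array were nearly equal. *Fgb*, the third chain, had 162 and 136 in the CRS arrays and 195 in the UNX array, lower in both.

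*Apcs*, the gene of serum amyloid P, had 53.8 and 202 in CRS arrays 1 and 2 and 298 in the UNX array, low in CRS array 1 like *C8a*. *Lcn2*, the neutrophil lipocalin, stood at -0.34 ± 0.30, *Il1b*, an inflammatory cytokine, at -0.24 ± 0.06, *Cd14*, the endotoxin co-receptor, at 0.27 ± 0.04 and *Cebpb*, a transcription factor of the acute phase, at 0.29 ± 0.20 (SD, n = 2 each). The classical hepatic acute phase transcripts *Saa1*, *Saa2*, *Hp* and *Crp* were all below the filter.

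Markers of other cells were read beside these values. Of 7 macrophage markers, all kept, 5 were lower in both CRS arrays (29.7% of all kept probe sets) and 2 higher in both (31.8% of all). Their summed signals were 4810 and 5520.46 in CRS arrays 1 and 2 and 6083 in the UNX array. No neutrophil or lymphocyte marker was kept. Of 7 measured hepatocyte markers, 4 were kept. *Hpd*, a tyrosine-degrading dioxygenase, had 2547 and 1106 in the CRS arrays and 509 in the UNX array, and *Ttr*, transthyretin, 12522 and 14321 in the CRS arrays and 13426 in the UNX array. Albumin, *Alb*, had 775 and 338 in the CRS arrays and 217 in the UNX array, in the order of *Cp* 1417494_a_at, whereas *Ahsg*, fetuin, had 6.63 and 5.30 in the CRS arrays and 6.47 in the UNX array, and *Apoa1*, the main apolipoprotein of high-density lipoprotein, 52.5 and 35.5 in the CRS arrays and 44.0 in the UNX array. *Apoh*, beta-2-glycoprotein I, had 205 and 632 in the CRS arrays and 279 in the UNX array, and *Cps1*, a urea cycle enzyme, 8.25 and 55.7 in the CRS arrays and 58.1 in the UNX array, both lowest in CRS array 1. The summed hepatocyte signals were 16116.8 and 16493 in CRS arrays 1 and 2 and 14539.5 in the UNX array. Of 5 urothelial markers 3 were kept, all 3 higher in CRS array 1 than in CRS array 2 (55.1% of all kept probe sets). The 5 summed to 883 and 586 in CRS arrays 1 and 2 and to 478 in the UNX array. Of 5 measured adipocyte markers 3 were kept, 2 of them higher in both CRS arrays (31.8% of all kept probe sets). The 5 summed to 12627 and 10572 in CRS arrays 1 and 2 and to 7629 in the UNX array. Both sums had the order of *Cp* 1417494_a_at, which 5 of the 8 *Cp* probe sets did not share. Within the adipocyte list, *Car3* had 8260 and 6995 in the CRS arrays and 3702 in the UNX array. *Fabp4*, with 4226 and 3424 in the CRS arrays and 3829 in the UNX array, did not have this order. Nor did *Adipoq*, with 101 and 130 in the CRS arrays and 88.6 in the UNX array. The part of these cell types, of the heart markers and of the male-biased genes in the *Cp*, *Cfi* and *Cd55* values was not tested.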

How the data were processed

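Kidney RNA of 2 CRS samples and 1 UNX sample was measured on single-colour Affymetrix arrays; per the labels' protocols, 250 ng of total RNA was labelled with a 3' in vitro transcription kit. The deposited values are intensities, the authors' MAS5 signal per probe set, made with MAS5 per the submitters' processing notes; its version and detection calls are not given in the sources used here. Each array's mean trimmed by 2% at each end was 500, so no further scaling was applied. Because MAS5 takes off mismatch signal, dim probe sets are noisy, and 3 arrays limit the precision.

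Probe sets were named from the platform annotation, with symbols updated through the Entrez ID in a RefSeq table (GRCm38.p6); 34958 had 1 symbol, and those with several were not named. Values became log2(signal + 28.8), the median 25th percentile of the arrays, and the filter stood at 7.01. All kept probe sets entered a limma 3.58.1 fit (R 4.3.3, mean-variance trend, two-sided, Benjamini-Hochberg at 0.05). A run on simulated data required only that estimated differences followed the planted ones in size, and set no limit on error rate or power. Its noise was drawn from the gap between the CRS arrays, so it too took the UNX array to vary like them. In limma's fit the lone UNX array adds nothing to the spread, which comes from the 2 CRS arrays and is shared in part across probe sets. The p-values rest on that spread, which may be technical, since the labels do not say that the samples are separate mice. CRS arrays are numbered in accession order. The genes and lists were chosen with earlier results of these data known. Named list genes are up to 6 per pathway list with the same sign in both CRS arrays, ranked by the smaller difference, and genes at least 1.5-fold apart in both; *Heph*, *Slc40a1*, *Fga*, *Fgg*, *C1qa*, *C1ra*, *C1s1*, *C2*, *C8g*, *Clu*, *Cd55b*, *Ahsg*, *Apoa1*, *Apoh*, *Cps1* and the acute phase genes below the filter were named after their values were seen.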

Additional observations from a re-analysis of the deposited data

How the results depend on the processing

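Alternatives changed the scaling, the offset, the filter, the probe sets and the variance model, or left out 1 CRS array. With 1 CRS array left out, a count in both CRS arrays became a count in the remaining 1. That condition is weaker, so such a count could only stay or rise. No paired analysis was possible because there was only 1 UNX array and the labels give no pairing. Limma's count of 0 became 8 with median centring and 3 without _x, _s and _a probe sets. Probe sets at least 2-fold higher in both CRS arrays numbered 32, but 15 with 1 probe set per gene, 190 without a filter, 13 with an offset of 4 times the 25th percentile, 4 in the upper quartile of signals and 60 to 110 when 1 CRS array was left out. Those at least 2-fold lower in both numbered 12, but 6, 60, 5 and 6 under the same 4 alternatives, 5 without _x, _s and _a probe sets and 47 to 119 with 1 CRS array left out. Between the CRS arrays, 105 were at least 2-fold higher in array 1, but 45 with 1 probe set per gene, 537 without a filter, 173 with an offset of 1, 52 with the larger offset, 44 in the upper quartile and 64 without _x, _s and _a probe sets. 114 were at least 2-fold lower in array 1, but 66 with 1 probe set per gene, 618 without a filter, 71 with the larger offset and 68 in the upper quartile.

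Of the complement and ceruloplasmin probe sets, those higher in both CRS arrays numbered 3, but 1 with 1 probe set per gene, 1 without _x, _s and _a probe sets, and 4 to 11 with 1 CRS array left out. Those lower in both numbered 2, but 1 with 1 probe set per gene, 0 in the upper quartile, and 3 to 10 with 1 CRS array left out. The 5 that were 2-fold apart between the CRS arrays became 1 with 1 probe set per gene and 2 in the upper quartile; fewer probe sets enter these alternatives. The median of other complement genes was 0.013, against 0.0073 to 0.13 with 1 CRS array left out, and that of the ceruloplasmin pathway genes was 0.0064, against -0.013 to 0.078. With 1 CRS array left out, the difference from the UNX array took both signs for *Cfb* (-0.17 to 0.13), *Cfi* (-0.065 to 0.87), *Serping1* (-0.50 to 0.036), *Cd59a* 1418710_at (-0.091 to 0.075) and *Cp* 1417495_x_at (-0.15 to 1.41), 1417496_at (-0.28 to 0.92), 1417497_at (-0.34 to 0.19), 1448734_at (-0.070 to 1.46) and 1448735_at (-0.50 to 0.13). *Cd59a* 1418710_at also turned sign with quantile normalization (0.0039), and the CRS gap of *Cd59a* 1429830_a_at with median centring (-0.022). The other 207 values of single probe sets under the alternatives kept their sign. Many of them could not change, because alternatives of the filter or of the probe sets only choose which probe sets enter. The cause of these shifts was not tested beyond the array left out. Dim signals limit 1441326_at and 1443906_at.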
